A study of Homo sapiens with 2 samples.

Results

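The cytosolic ribosomal proteins are the structural proteins of the ribosome outside mitochondria. They were taken as all genes of the table whose symbol is RPL or RPS followed by a number, with or without a final A, L or X, together with RPLP0, RPLP1, RPLP2 and RPSA. This choice used names only and gave 81 of 50868 genes, of which 49 belong to the large (60S) subunit and 32 to the small (40S) subunit. Molm13, a human acute myeloid leukemia (AML) line with the KMT2A::MLLT3 fusion, was profiled by RNA-seq in 1 library of cells carrying an empty vector (Vector) and 1 library labelled OE-UNC5B, of cells carrying a UNC5B overexpression construct. According to the methods, constructs were delivered by lentivirus, UNC5B was driven by the CMV promoter and tagged with FLAG and mCherry, and cells were selected with puromycin. Both libraries come from the same line, and whether the cells were a pool or a clone was not given in the sources used here.

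The ribosome translates mRNA into protein. The small subunit binds the mRNA and reads its codons, and the large subunit joins the amino acids and releases the growing chain through an exit tunnel. Most of its proteins are present in a single copy per ribosome, their mRNAs are among the most abundant of any growing cell, and most of them begin with a C followed by a run of pyrimidines (a terminal oligopyrimidine tract), through which mTOR signalling controls their translation. Loss of a single copy of several of these genes causes Diamond-Blackfan anaemia, a failure of red cell production.

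Counted reads numbered 13715566 in Vector and 15637137 in its counterpart labelled OE-UNC5B, and pairs of values below give Vector first. UNC5B had 0 reads in both, which allows up to 0.219 and 0.192 CPM (reads scaled to library size), so the overexpression was not visible and every direction given here rests on the labels. The AML markers PTPRC, CD33, FLT3, MPO, LYZ, HOXA9, MEIS1 and SPI1 all had reads in both libraries. Several of them differed between the libraries, with log2 fold changes, as defined below, of -1.36 for LYZ (51742 and 23700 reads), -1.35 for MPO, 0.90 for MEIS1 and 0.73 for PTPRC, and their part in the results below was not tested. The endothelial markers KDR, CDH5 and TEK and the HEK293T markers KRT8, NEFM and LIN28B had 0 reads. Of the same lists, VWF had 1 and 2 reads, KRT18 had 5 and 2, and PECAM1, which myeloid cells also express, had 1626 and 1471. Log2 fold changes of the library labelled OE-UNC5B over Vector were taken after TMM scaling (edgeR), with 0.5 reads added, in the 15384 genes whose 2 counts summed to at least 10 reads. Each condition has 1 library, so there is no replicate error and no test of the conditions. Intervals given with log2 fold changes are 95% Clopper-Pearson intervals of the reads and cover counting error only. Reads are not independent molecules, and fewer cells and less RNA per cell cannot be told apart.

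In the library labelled OE-UNC5B, ribosomal protein mRNAs were a little lower than in Vector. The members took 1027691 reads in Vector, 7.49% of all counted reads (95% Clopper-Pearson interval 7.48% to 7.51%). In the library labelled OE-UNC5B they took 1073649 reads, 6.87% of all counted reads (interval 6.85% to 6.88%). Of the 81 genes, 79 passed the minimum of 10 reads and the remaining 2, RPL3L and RPL10L, had 0 reads in both libraries. Among the 79, 69 were lower and 10 were higher, with a median log2 fold change of -0.23, a level 15.0% lower than in Vector. Over all 15384 genes the median was -0.01 and 50.6% were lower, and over the 5932 genes with at least 1000 reads, an abundance that 76 members also reach, the median was -0.01 and 50.7% were lower. The interval from the reads lay below 0 for 66 members (83.5%) and above 0 for 7 (8.86%). Among all genes tested these shares were 26.2% and 25.2%, and among those with at least 1000 reads 38.0% and 37.0%. More reads give narrower intervals, so these shares are not at equal depth. The members had a median of 22573 reads over both libraries, against 608.5 over the 15198 genes tested with a known length. On the deposited FPKM scale the lower share did not hold, since the members made up 4.95% of the FPKM sum in Vector against 4.96% in the library labelled OE-UNC5B.

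The size of the difference was small for each gene. By a change of at least 1.5-fold, 4 members were lower, where 12.5% of all genes tested and 6.57% of those with at least 1000 reads were. No member was higher, against 12.9% and 7.62%. The lower count was 1 with library totals and 2 after subtraction of a trend on GC content and length. No member reached 2-fold in either direction, where 4.79% of all genes tested were lower and 5.15% higher (1.20% and 1.90% of those with at least 1000 reads). By a fold of 1.25, chosen after the values were seen, 22 members were lower and 2 were higher, against 25.2% and 24.7% of all genes tested and 19.2% and 19.9% of those with at least 1000 reads. These counts were 14 and 3 with library totals, and 10 and 4 after subtraction of a trend on GC content and length. The members also lay closer to each other than other abundant genes did. The middle 50% of the members spanned 0.25 on the log2 scale, from -0.34 to -0.10, and the middle 50% of the 5856 other genes with at least 1000 reads spanned 0.51, from -0.25 to 0.26.

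**Figure D1:**
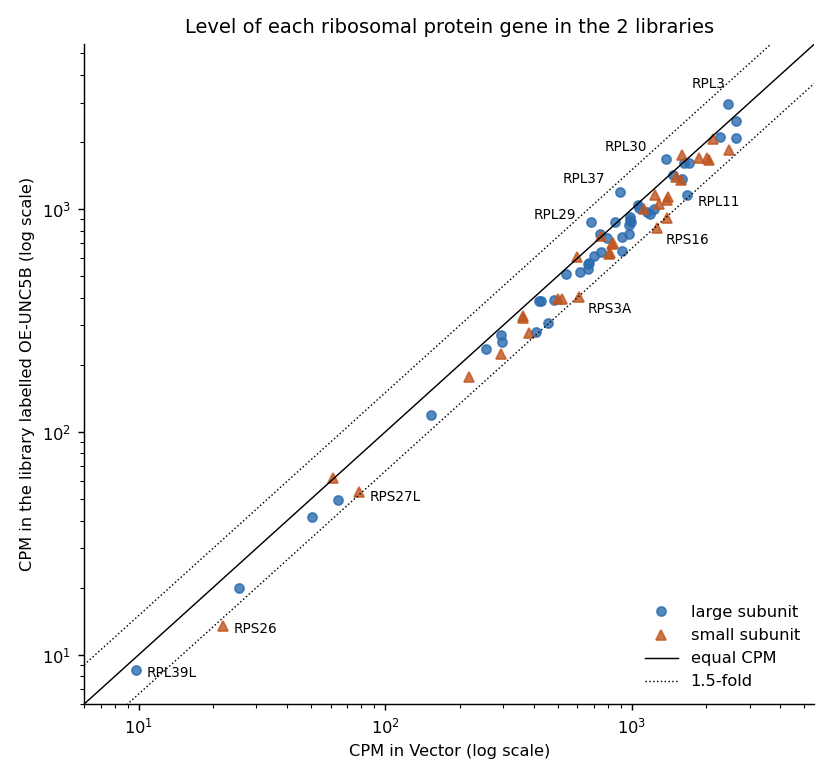
CPM of each of the 79 ribosomal protein genes with at least 10 reads, in Vector on the x axis against the library labelled OE-UNC5B on the y axis, both on log scales. The solid line marks equal CPM and the dotted lines 1.5-fold; 69 genes lie below the solid line, and the 4 below the lower dotted line belong to the small subunit.

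The median stayed below 0 under each scaling tried, and its size changed. It was -0.19 with library totals. Ribosomal protein transcripts are short, with a median of 785 nt for the canonical transcript in GENCODE 44 against 2712.5 nt over the genes tested, and across the genes tested shorter and GC-richer genes were lower (Spearman rho of 0.20 with length and -0.18 with GC content across 15198 genes, which share the same 2 libraries). After subtraction of the GC content and length trend, the median of the members was -0.13 and 61 of the 79 were below 0.

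Between the subunits, small subunit mRNAs were lower than large subunit mRNAs relative to Vector. The 47 large subunit genes with reads had a median log2 fold change of -0.19, from -0.57 in RPL36 to 0.42 in RPL37. The 32 small subunit genes had a median of -0.30, from -0.70 in RPS26 to 0.14 in RPS2. The difference of the medians was 0.11, and 21 of the 32 small subunit genes lay below the large subunit median. The distributions overlapped over most of their range, and all 4 members past 1.5-fold with TMM scaling belonged to the small subunit. By the fold of 1.25, 13 of 32 small subunit genes (40.6%) and 9 of 47 large subunit genes (19.1%) were lower, against 25.2% of all genes tested and 19.2% of those with at least 1000 reads, so the large subunit count was at the background. These counts were 9 small and 5 large subunit genes with library totals, and 7 and 3 after subtraction of the GC content and length trend, where the medians were -0.18 and -0.10.

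The same difference appears within each library, where it does not depend on the scaling. Of the reads on members, large subunit genes held 57.5% in Vector (95% Clopper-Pearson interval 57.4% to 57.6%) and 59.6% in the library labelled OE-UNC5B (interval 59.5% to 59.7%). The 4 highest large subunit genes, RPL37, RPL29, RPL30 and RPL3, held 7.10% of the members' reads in Vector against 9.90% in the library labelled OE-UNC5B. Without these 4, an alternative chosen after the values were seen that by its construction brings the libraries closer, the large subunit held 54.3% (interval 54.2% to 54.4%) and 55.2% (interval 55.1% to 55.3%). Genes are not replicates, and with 1 library per group the difference between the subunits has no replicate check.

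**Figure D2:**
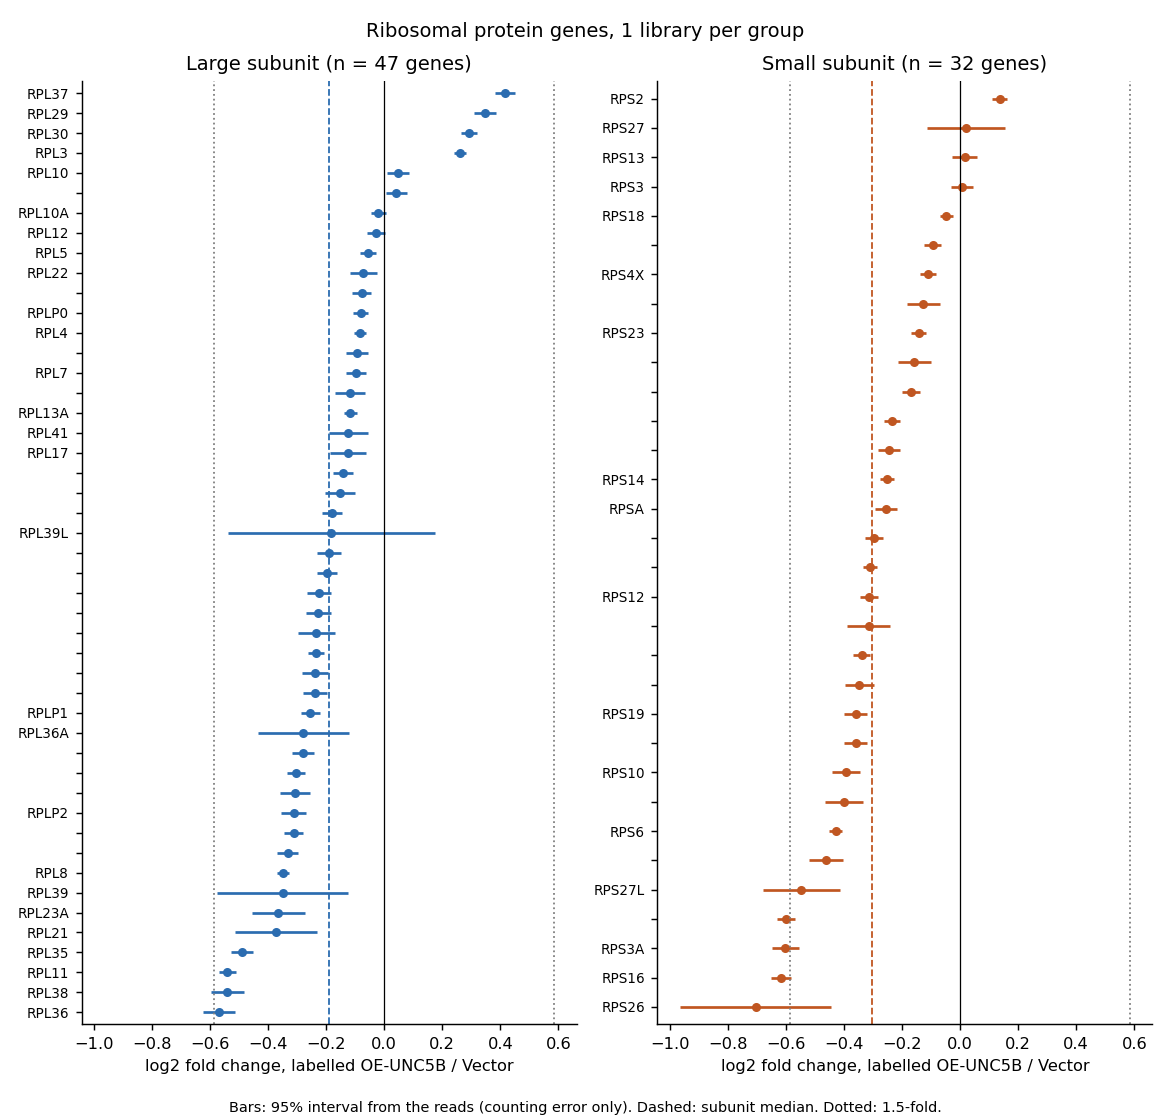
Log2 fold change of each ribosomal protein gene, library labelled OE-UNC5B over Vector (x axis), for the 47 large (left) and 32 small (right) subunit genes with at least 10 reads. Points are the values, bars the 95% intervals from the reads, dashed lines the subunit medians of -0.19 and -0.30, and dotted lines 1.5-fold. Genes named in the text are labelled.

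**Figure D3:**
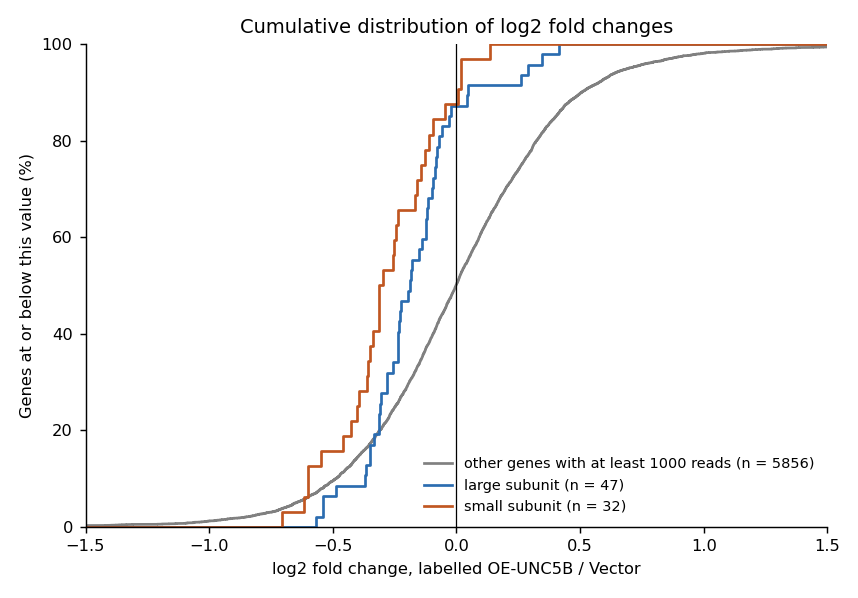
Share of genes (y axis, percent) at or below each log2 fold change (x axis) for the large subunit, the small subunit and the 5856 other genes with at least 1000 reads. Both subunit curves are steeper than that of the other genes and lie to its left over most of the range, and the small subunit curve lies left of the large subunit curve except close to 0, where they meet.

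The start sites of a few members are printed to show the tract, or its absence, at both ends of this range. RefSeq promoters of GRCh38.p14 were found for 64 of the 81 members. Each sequence runs from 10 bases before the annotated start to 20 bases from it on, 5′ to 3′ on the strand of the gene. Capitals mark the pyrimidine tract where the start is a C followed by at least 4 pyrimidines (C or T), read on the gene's strand only. RPS16, RPS3A, RPL36 and RPL11 were among the lowest members, RPL29 and RPL3 among the highest, and RPS27 and RPS27L are a parent gene and its paralog.
RPS16, chr19:39435930-39435959, minus strand: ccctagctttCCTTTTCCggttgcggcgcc
RPS3A, chr4:151099618-151099647, plus strand: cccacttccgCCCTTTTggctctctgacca
RPL36, chr19:5690285-5690314, plus strand: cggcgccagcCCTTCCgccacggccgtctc
RPL11, chr1:23691796-23691825, plus strand: gctccgctttCTCTTCCTgctctccatcat
RPL29, chr3:51995876-51995905, minus strand: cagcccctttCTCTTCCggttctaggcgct
RPL3, chr22:39319604-39319633, minus strand: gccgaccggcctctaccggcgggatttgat
RPL10A, chr6:35468391-35468420, plus strand: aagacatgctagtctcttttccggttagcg
RPS27, chr1:153990752-153990781, plus strand: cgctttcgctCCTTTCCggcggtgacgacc
RPS27L, chr15:63157458-63157487, minus strand: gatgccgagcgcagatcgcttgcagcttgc
The tract began at an annotated start in 46 of the 64 members, 71.9%, and in 5.14% of the 27305 genes with a RefSeq promoter. It began within 5 bases of a start in 53 members, 82.8%, and in 25.2% of those 27305 genes. In RPL3 the tract begins just before the annotated start, and in RPL10A, whose levels were nearly equal, it begins after it, so both count as near a start only. The RefSeq table gives RPL11 a second start as well. The tract was about as frequent in both subunits, in 28 of 39 large and 18 of 25 small subunit genes. The 46 members with it at the start had a median of -0.25 for the log2 fold change, and the 17 tested members without it -0.23.

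Among the lowest members of the small subunit were RPS26, RPS16, RPS3A and RPS27L. RPS16, a protein of the small subunit head (chr19:39433207-39435948, minus strand), had 16988 reads in Vector against 13051 in the library labelled OE-UNC5B. These correspond to 1259 and 821 CPM, a log2 fold change of -0.62 (interval -0.65 to -0.58). RPS3A, on the platform of the small subunit, had 8238 and 6394 reads and a log2 fold change of -0.60 (interval -0.65 to -0.55). It shares sequence with processed pseudogenes, and with their reads added it was -0.28. RPS26, which lies near the mRNA exit and is mutated in Diamond-Blackfan anaemia, had the lowest value of all members, -0.70, but from 296 and 214 reads, with an interval from -0.96 to -0.45, and its pseudogene rows held more reads, 1665 and 1141. RPS26, RPS16 and RPS3A were among the 4 members past 1.5-fold. With library totals only RPS26 was past it, and after subtraction of the GC content and length trend RPS26 and RPS27L were. RPS27L went from -0.55 to -0.72 by that subtraction, which takes the length of the canonical transcript. For RPS27L this is 6110 nt, with 252 nt coding, so its call depends on that transcript choice. The member next inside was RPL36, at -0.57.

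Most other small subunit genes lay between these and no difference. RPS6, the target of S6 kinase, had 33377 and 29226 reads, the most of any small subunit gene in Vector, and a log2 fold change of -0.43 (interval -0.45 to -0.41). RPS12 had 18962 and 17974 reads and a log2 fold change of -0.31, which was -0.18 after subtraction of the GC content and length trend. RPS18 was close to equal, with 2128 and 2059 CPM, a log2 fold change of -0.05 (interval -0.07 to -0.02) that became 0.10 after subtraction of the trend. At the upper end, RPS27, RPS13 and RPS3 had intervals that held 0. RPS3 helps to form the mRNA entry channel and repairs DNA outside the ribosome, and its levels were 752 and 756 CPM. RPS2, also at the entry channel, was the only small subunit gene whose interval lay above 0, with 21496 and 27834 reads and a log2 fold change of 0.14 (interval 0.11 to 0.16). With the reads of its pseudogenes added it was 0.06, and after subtraction of the GC content and length trend it was 0.32.

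In the large subunit, 4 genes stood above the rest. RPL37 (chr5:40825262-40835335, minus strand) had 12065 reads in Vector against 18965 in the library labelled OE-UNC5B, which gives 894 and 1193 CPM and a log2 fold change of 0.42 (interval 0.38 to 0.45). RPL29 (chr3:51993600-51995942, minus strand), which also binds heparin at the cell surface, had 9222 and 13822 reads and a log2 fold change of 0.35 (interval 0.31 to 0.39). RPL30 had 18567 and 26761 reads and 0.29 (interval 0.26 to 0.32). RPL3 (chr22:39312882-39320389, minus strand), which lies beside the peptidyl transferase centre, had 33143 and 46784 reads and 0.26 (interval 0.24 to 0.28). RPL3 had more reads over both libraries than any other member, 79927. The next gene, RPL10, the protein added last to the large subunit, was at 0.05 (interval 0.01 to 0.09), below the intervals of these 4. With the reads of their pseudogenes added, RPL10 was at -0.14 and RPL3 at 0.20. After subtraction of the GC content and length trend, RPL37 was at 0.21, RPL29 at 0.52 and RPL10 at 0.12. RPL30 and RPL3 were then at 0.39 and 0.38. The trend takes the length of the canonical transcript. For RPL37 this is 7573 nt, the longest of any tested member, with 291 nt coding. How far this transcript choice sets its value was not tested.

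At the lower end of the large subunit were RPL36, RPL38, RPL11, RPL35 and RPL21. RPL36 (chr19:5674947-5691876, plus strand) had 6187 and 4915 reads, 459 and 309 CPM, and a log2 fold change of -0.57 (interval -0.62 to -0.51). RPL38, known in mouse embryos for its part in translating Hox mRNAs, had 5502 and 4457 reads and -0.54 (interval -0.60 to -0.48). RPL11 (chr1:23691779-23696425, plus strand) had 22558 and 18275 reads and also -0.54 (interval -0.57 to -0.51). RPL35, at the rim of the exit tunnel, had 12270 and 10303 reads and -0.49 (interval -0.53 to -0.45). In percent of the Vector level, these 4 genes differed by -28.7% to -32.6%. After subtraction of the GC content and length trend, RPL36 was at -0.33 and RPL35 at -0.27 on the log2 scale. RPL21 had only 864 and 787 reads and -0.37 (interval -0.51 to -0.23).

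Other members lay between the ends of the range. RPL8 had the most reads in Vector, 35624 against 32970 in the library labelled OE-UNC5B, and a log2 fold change of -0.35 (interval -0.37 to -0.33). RPL4, whose loop lines the exit tunnel, had nearly the same number in Vector, 35578, but 39520 in the library labelled OE-UNC5B, and -0.08 (interval -0.11 to -0.06). The intervals of RPL8 and RPL4 did not overlap. RPL13A, which also acts outside the ribosome as a translational silencer, had 30799 and 33453 reads and -0.12 (interval -0.14 to -0.09). RPL41, the smallest ribosomal protein, had 3455 and 3735 reads and -0.12 (interval -0.19 to -0.06). RPL12 and RPL10A, of the stalk base and the L1 stalk, had intervals that held 0, at -0.03 (interval -0.0608 to 0.0040) and -0.02 (interval -0.05 to 0.01). RPSA, a small subunit protein also known as a laminin receptor, had 11336 and 11179 reads and -0.26 (interval -0.29 to -0.22). RPS4X had 20308 and 22154 reads and -0.11 (interval -0.14 to -0.08).

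Proteins that work as one unit did not always move together. RPL5 and RPL11 enter the ribosome as a particle with 5S rRNA, and when free they bind and inhibit MDM2. RPL5 had 19847 and 22469 reads, a log2 fold change of -0.06 (interval -0.09 to -0.03), while that of RPL11 was -0.54, and these intervals are far apart. The stalk that recruits translation factors holds RPLP0 and dimers of RPLP1 and RPLP2. RPLP0 had 23042 and 25667 reads and -0.08 (interval -0.11 to -0.06). RPLP1 and RPLP2 were lower, at -0.25 (interval -0.29 to -0.22) from 15585 and 15388 reads and -0.31 (interval -0.35 to -0.27) from 8988 and 8529 reads. With the reads of its pseudogenes added, RPLP0 was at -0.13, and after subtraction of the GC content and length trend RPLP0 was at 0.03, RPLP1 at -0.18, RPLP2 at -0.10 and RPL5 at 0.01. All 9 proteins listed around the exit tunnel were below 0, with a median of -0.19, from -0.49 in RPL35 to -0.07 in RPL22, and 8 of the 9 were below 0 after subtraction of the trend, with a median of -0.09.

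The head of the small subunit, which swivels as tRNAs and mRNA move, had 14 listed genes with a median of -0.34. The other 18 small subunit genes had a median of -0.25. By the fold of 1.25, 8 of the 14 (57.1%) and 5 of the 18 (27.8%) were lower, against 25.2% of all genes tested and 19.2% of those with at least 1000 reads. After subtraction of the trend the medians were -0.20 and -0.15, and the counts 3 of 14 and 4 of 18, and with library totals the counts were 4 and 5. RPS3 was the highest of the head genes and RPS16 the lowest. The 10 listed Diamond-Blackfan anaemia genes were all below 0, with a median of -0.20, close to that of the members as a whole, and 8 of the 10 were below 0 after subtraction of the trend, with a median of -0.12. Among them RPS19, the gene most often mutated in that disease, had 10887 and 10000 reads, a log2 fold change of -0.36 (interval -0.40 to -0.32).

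**Figure D4:**
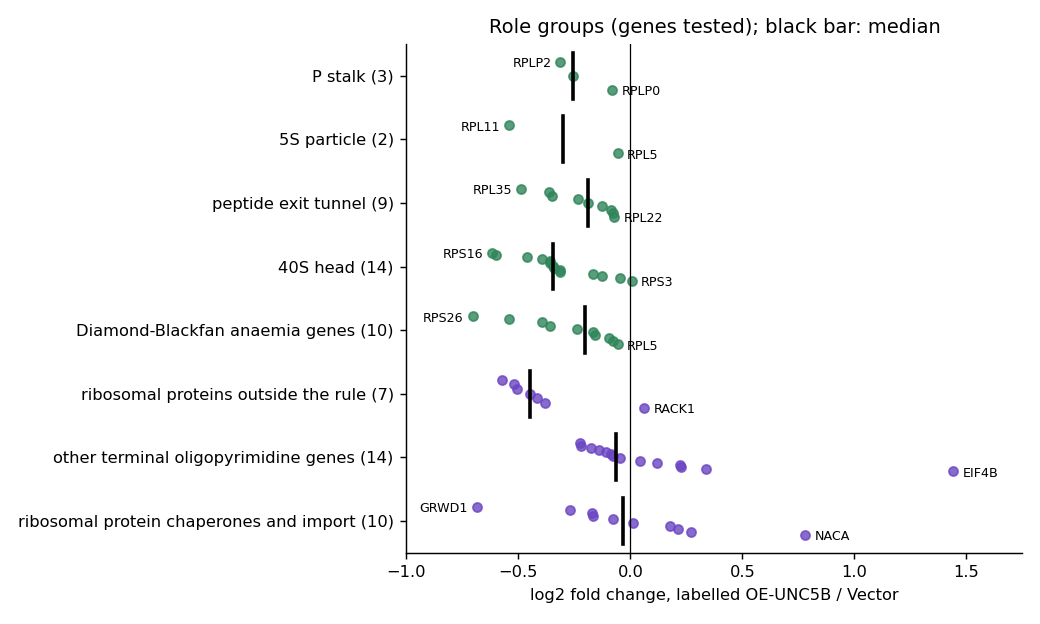
Log2 fold change (x axis) of the genes of 8 role groups (y axis, with the number of genes tested), library labelled OE-UNC5B over Vector. Green points are ribosomal proteins chosen by symbol, purple points are genes outside that choice, black bars are medians, and the lowest or highest genes that the text names are labelled.

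The choice by symbol also took in 4 paralogs of restricted use. RPL3L, of heart and skeletal muscle, and RPL10L, of testis, had 0 reads in both libraries. RPL39L, best known from testis and cancer cells, had 131 and 136 reads, a log2 fold change of -0.18 whose interval, -0.54 to 0.17, held 0. RPS27L, a p53 target, had 1055 and 851 reads, 78.2 and 53.5 CPM, and a log2 fold change of -0.55 (interval -0.68 to -0.41). Its parent RPS27 had 827 and 988 reads and 0.02 (interval -0.11 to 0.16). The intervals of parent and paralog did not overlap. The start of RPS27L printed above has no pyrimidine tract, and a link of the tract to this difference was not tested. For RPL39, the parent of RPL39L, 343 and 317 reads gave -0.35 (interval -0.58 to -0.13).

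Ribosomal proteins with other symbols were mostly lower too. Of 7 such genes, 6 were lower by at least 1.25-fold, where 25.2% of all genes tested were, none reached 1.5-fold in either direction, and the median was -0.45, below the -0.23 of the members. FAU, which encodes RPS30, had 3107 and 2811 reads and a log2 fold change of -0.38 (interval -0.46 to -0.31). RACK1, a signalling scaffold on the small subunit, was the exception, at 0.06 (interval 0.03 to 0.09) from 14127 and 17382 reads.

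Other genes known for pyrimidine tracts at the mRNA start, most of them translation factors, had another spread. The 14 listed genes had a median of -0.06, 8 were below 0, and their summed reads had a log2 fold change of 0.14 against -0.17 for the members. They summed to 324377 and 421648 reads, of which EEF2 alone held 103275 and 153630. The GC content and length trend was not subtracted for this list. EEF1A1, which brings tRNAs to the ribosome, had 67944 and 75396 reads and -0.09 (interval -0.10 to -0.07). EEF2, which moves the ribosome along, had 103275 and 153630 reads and 0.34 (interval 0.33 to 0.35). EIF4B, a partner of the helicase EIF4A, was the only listed gene of 14 past 1.5-fold, and past 2-fold, where 12.9% and 5.15% of all genes tested were, with 5362 and 17156 reads and a log2 fold change of 1.44 (interval 1.40 to 1.49). Among 10 listed chaperones and importers of ribosomal proteins the median was -0.03, and by 1.5-fold NACA was higher and GRWD1 lower, 1 of 10 each, near the 12.9% and 12.5% of all genes tested. GRWD1, the chaperone of RPL3, had 2146 and 1572 reads and -0.69 (interval -0.78 to -0.59), while RPL3 itself was above 0. NACA, which meets new chains at the exit tunnel, had 3339 and 6759 reads and 0.78 (interval 0.72 to 0.84).

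Many reads were counted on pseudogenes of these genes. Ribosomal protein mRNAs have been copied into the genome many times, and the table holds 1166 rows named as pseudogenes of a member, of which 469 had reads. They held 385094 and 403135 reads, which is 27.3% of the reads of members and pseudogenes together in each library. For 12 members these rows held more reads than the member itself. RPL7 had 13235 and 14576 reads, while its pseudogene rows had 87080 and 97546, most of them on RPL7P9 and RPL7P1. RPL21 had 864 and 787 reads, and its pseudogene rows 28129 and 26729. RPL23A had 2074 and 1898 reads, and its pseudogene rows 19436 and 18621. The counting tool and its treatment of reads that match several places were not given in the sources used here, and these members' values are uncertain.

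The 154 pseudogene rows with at least 10 reads had a median log2 fold change of -0.17. The summed reads of all pseudogene rows had a log2 fold change of -0.17, and so had those of the members. The order of the subunits was not the same in these rows, with -0.18 for the summed pseudogene reads of large subunit genes and -0.15 for those of small subunit genes, against -0.12 and -0.25 for the members themselves. With the pseudogene reads added to each member, the median of the 79 members stayed at -0.23. The values of single genes changed more, as for RPS3A above, and RPL10 turned from 0.05 to -0.14. Reads could also go to readthrough genes that contain a member. RPL17-C18orf32 had 949 and 1329 reads beside 3985 and 4305 of RPL17, RPL36A-HNRNPH2 had 87 and 109 beside 680 and 660 of RPL36A, and RPS10-NUDT3 had 0.

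**Figure D5:**
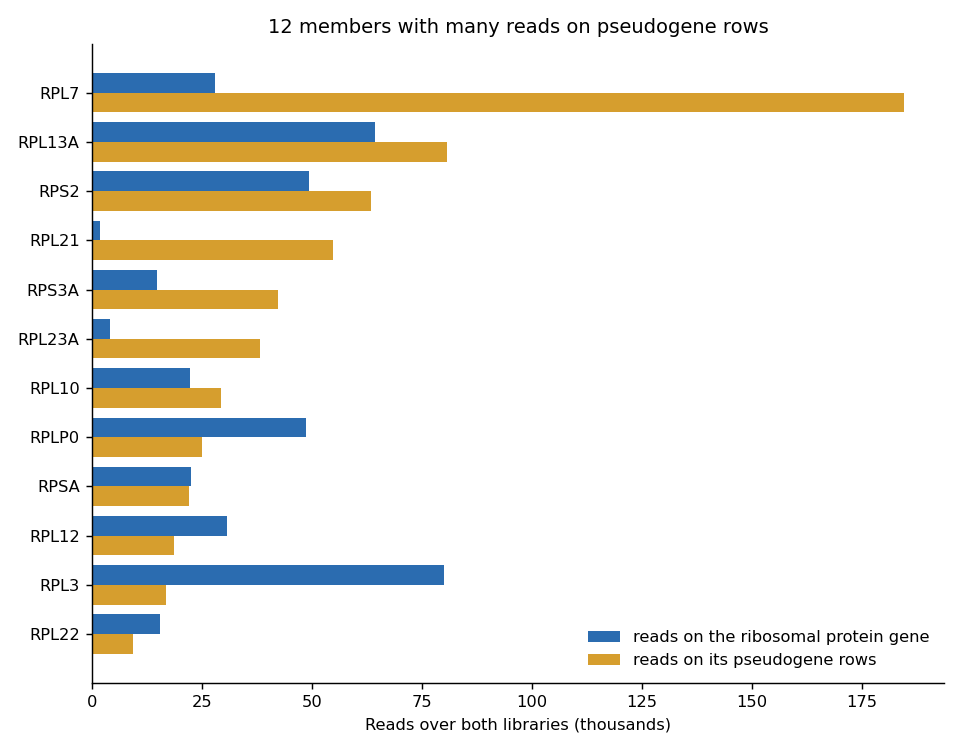
Reads over both libraries, in units of 1000 (x axis), on 12 members named in the text that had many reads on pseudogene rows (y axis). Blue bars are reads of the ribosomal protein gene and yellow bars reads of all rows named as its pseudogenes; the pseudogene bar is the longer for RPL7, RPL13A, RPS2 and RPL21, among others.

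Levels can be compared between members only per length, and here with care. In the deposited FPKM, reads divided by a gene length and by library size, RPS12 was the highest member, with 1488 and 1237. RPL10A (667 and 680), RPL11 (670 and 476), RPS18 (566 and 566) and RPS6 (638 and 490) followed. The lowest expressed were RPS27L (6.35 and 4.49), RPS26 (8.31 and 5.27) and RPL39L (7.17 and 6.53). The gene length behind these FPKM is not that of the mRNA. Worked back from counts and FPKM, it ran from 929 to 16739 nt with a median of 5312 nt, exceeded the canonical transcript for every member by 1.27 to 38.6 times, and exceeded the whole gene locus for 36 of 79 members. Scaled to the coding length of GENCODE 44 instead, RPS18, RPS14, RPS23 and RPL30 were among the highest in Vector, at 4667, 4468, 4355 and 3989 CPM per coding kilobase. RPS18 stands near the top on both scales, and RPS12 leads on the deposited scale only.

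Position and gene structure were compared as descriptions. The 12 members on chromosome 19, RPS16 and RPL36 among them, were all below 0, with a median of -0.33. The 67 on other chromosomes had a median of -0.19. The 12 are GC-rich, from 53.6% in RPS16 to 61.3% in RPS15, against a median of 47.6% over the 79 members. The GC content and length trend was not subtracted for this grouping. In GENCODE 44, 28 members hold 60 small nucleolar RNAs, guides of rRNA modification, on their own strand. These host genes had a median of -0.23, as did the 51 other members, but their summed reads had a log2 fold change of -0.08 against -0.23 for the others, and 21 of the 28 against 48 of the 51 were below 0. By the fold of 1.25, 17.9% of the host genes and 33.3% of the others were lower, against 25.2% of all genes tested and 19.2% of those with at least 1000 reads. Among the 4 highest large subunit genes, RPL37, RPL30 and RPL3 host at least 1 and RPL29 hosts none. Across the 79 members, which share the 2 libraries, the log2 fold change had a Spearman rho of 0.29 with read number and -0.22 with GC content.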

How the data were processed

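RNA of Molm13 cells was sequenced as 1 library per condition (13715566 and 15637137 counted reads). The authors deposited raw gene counts and FPKM values. The submitters' processing notes name bcl2fastq 2.19, HISAT2 2.0.4, StringTie 1.3.0 and GRCh38. Which tool counted the reads, on which annotation, and whether strand was used were not given in the sources used here. All 81 members overlapped their GENCODE 44 locus.

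Read counts were normalised by TMM (edgeR 4.0.16 in R 4.3.3) and 0.5 reads were added before taking log2 ratios. Genes with under 10 reads in total were left out. Interval bounds are 95% Clopper-Pearson bounds (scipy 1.17.1). No model of the conditions, edgeR's quasi-likelihood test included, can be fitted to single libraries, so genes were called by fold alone (1.5-fold and 2-fold). The procedure was tested on simulated counts. GENCODE 44 gave lengths, GC content and small nucleolar RNAs, and RefSeq the start sites.

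Named members were the 5 highest and 5 lowest log2 fold changes of each subunit, members past 1.5-fold, the 5 highest and 3 lowest by mean FPKM, members with at most 10 reads, and genes of the role lists. RPL7, RPL8, RPL12, RPL13A, RPL36A, RPL41, RPS4X, RPS14, RPS23, RPSA and the pseudogene rows were added after values were seen. Some genes that this rule names are not reported here. The members and lists were chosen with earlier results of these data known. The alternatives comprised library totals, size factors of DESeq2 1.42.0, TMM computed without members, FPKM plus 0.1 or plus 1, a prior of 2 reads, a minimum of 0 or 50 reads, addition of pseudogene reads, removal of paralogs, and subtraction of a loess trend on GC content and length.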

Additional observations from a re-analysis of the deposited data

How the results depend on the processing

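No paired analysis was possible because each condition had 1 library, which also leaves no replicate to leave out. The medians of the members and of both subunits stayed below 0, and that of the large subunit above that of the small subunit, under every alternative run. They moved by less than 0.0379 with DESeq2 size factors, TMM without members, 2 reads added, at least 50 reads, pseudogene reads added, no paralogs, or the 68 members with no larger pseudogene row, the last chosen after the values were seen. No filter added no value, since both members under the minimum had 0 reads. The medians of all members, large and small subunit were -0.19, -0.14 and -0.26 with library totals and with FPKM and 0.1 added, -0.19, -0.14 and -0.25 with FPKM and 1 added, and -0.13, -0.10 and -0.18 after subtraction of the GC content and length trend. The number of members lower by 1.5-fold was 1 with library totals, 1 and 0 with FPKM (0.1 and 1 added) and 2 after subtraction of the trend. By 1.25-fold, 14, 13 and 13 were lower under the first 3 of these settings, and 10 lower and 4 higher after subtraction of the trend. With pseudogene reads added, members took 10.3% of reads in Vector against 9.44% in the library labelled OE-UNC5B. By sums of FPKM they took 4.95% and 4.96%, so the lower share did not hold on that scale; the cause was not tested. The large subunit held 62.8% and 64.3% of the reads with pseudogene reads added, and 51.2% and 53.0% of the FPKM sums. Of 306 values of 28 named members under alternatives, 92 moved beyond the interval from the reads and 8 took the other sign, in RPL10, RPL10A, RPL5, RPLP0 and RPS18. Depth limits RPL39L, RPS26 and RPL39 most, whose intervals are the widest.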
